A study of Mus musculus with 7 samples.

Results

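Naive and primed pluripotent cells were compared across the transcriptome after derivation from the same starting population, the Oct4GFP+ cells obtained by reprogramming in the medium called 5C. The comparison used 2 of the 7 mouse RNA-Seq libraries of the series, 1 for each state, and took every gene with a level of at least 5 TPM (transcripts scaled to a fixed total per library) in either of them. Of the 29267 genes in each table, 11601 met that minimum. Because each state was a lone library, no test was possible, no p-value is given, and every ratio describes these libraries rather than the states in general.

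The naive and primed libraries came from embryonic fibroblasts of OG2 mice, which carry a transgene that makes GFP when Oct4 is active. Retroviruses carrying Sox2, Klf4, Oct4 and c-Myc were used to reprogram the fibroblasts, which were cultured in 5C medium and sorted for GFP before being moved to naive or primed medium. Naive medium contained LIF, the MEK inhibitor PD0325901, the GSK3 inhibitor CHIR99021 and vitamin C. Primed medium contained bFGF and activin A. Primed R1 cells were induced on fibroblast feeders and then kept on serum-coated plates with CHIR99021 and the tankyrase inhibitor IWR-1 in place of the growth factors, and the sources used here do not state which of these conditions the primed 5C-derived cells were in at harvest. Both libraries are labelled as 20 passages, while the methods also describe a short culture in these media, so the time since the change of medium is not settled. Whether either culture was a clone is not given. Because the 4 reprogramming factors were delivered as coding sequences, the gene tables cannot separate reads of the viral and the chromosomal copies of Pou5f1, Sox2, Klf4 and Myc.

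For reference, 3 other libraries are quoted below. 5C-Oct4GFP+ is the sorted starting population at passage 0, mES-Oct4GFP+ is the matching GFP+ population from the serum and LIF medium, also at passage 0, and R1-primed is a primed culture of the R1 embryonic stem cell line at 20 passages. The GFP- fractions of both reprogramming media are used only for marker levels. Each of these groups was also 1 library. The label of mES-Oct4GFP+ was used as given, but is in doubt. Some of its genes that respond to the inhibitors were near or beyond the levels of the naive library. Egr1 was at 0.32 and 0.50 TPM and Cdx1 at 148 and 69.3 TPM, beside 253 and 0.73 TPM in 5C-Oct4GFP+ cells. 5C medium held bFGF, and what sets these levels was not tested.

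Mouse pluripotency passes through distinct states. Naive cells resemble the epiblast before implantation, depend on LIF and STAT3 signalling and on low ERK activity, and express factors such as Esrrb, Klf2, Tfcp2l1 and Zfp42. Primed cells resemble the epiblast after implantation, are kept by FGF and activin signals, express Fgf5 and Otx2, and in culture often show genes of the primitive streak. Oct4 (Pou5f1) is common to both.

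The estimated counts summed to 8233480 in the naive library and 11496615 in the primed library, the highest of the 7, whose lowest was 6108252. For a gene of typical length 1 read corresponded to 0.091 TPM in the naive and 0.066 TPM in the primed library. The 100 most abundant genes took between 15.6% and 19% of all counts in the 7 libraries. The labels were checked against markers. The naive list of 24 genes had 24 members at 5 TPM or more in the naive library and 7 in the primed library, with summed levels of 8957 and 1041 TPM. Genes of the Y chromosome were read in both libraries, with Ddx3y, a Y-linked RNA helicase, at 31.1 and 33.8 TPM, Eif2s3y, a translation initiation subunit, at 99.6 and 63.3 TPM, and Uty, a demethylase family member, at 15 and 14.2 TPM. Xist, the RNA of the inactive X chromosome, was at 1.36 TPM in naive and 5.36 TPM in primed cells.

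Differences were taken as log2(TPM + 1) in naive minus primed, so a positive value is higher in naive cells, and a gene was counted as different when that value reached 1 in either direction, a 2-fold change on this scale. Of the 11601 genes, 1746 (15.1%) were at least 2-fold higher in naive cells and 2400 (20.7%) were at least 2-fold higher in primed cells, 35.7% in all. The median over all genes was -0.13, and after scaling the naive values by the median TPM ratio the counts were 1924 and 2203, which moved the naive share of the differing genes from 42.1% to 46.6% with a median of -0.03. At a difference of 2 or more on the log2 scale there were 953 genes towards naive and 1137 towards primed, and at 5 or more there were 149 and 58. Of the genes higher in naive cells, 503 (28.8%) were under 1 TPM in primed cells, and 545 (22.7%) of those higher in primed cells were under 1 TPM in naive cells. A gene that reached 5 TPM in only 1 of the 2 libraries was admitted by that library, so counts within gene lists are read beside these shares and describe the lists without testing them.

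**Figure D1:**
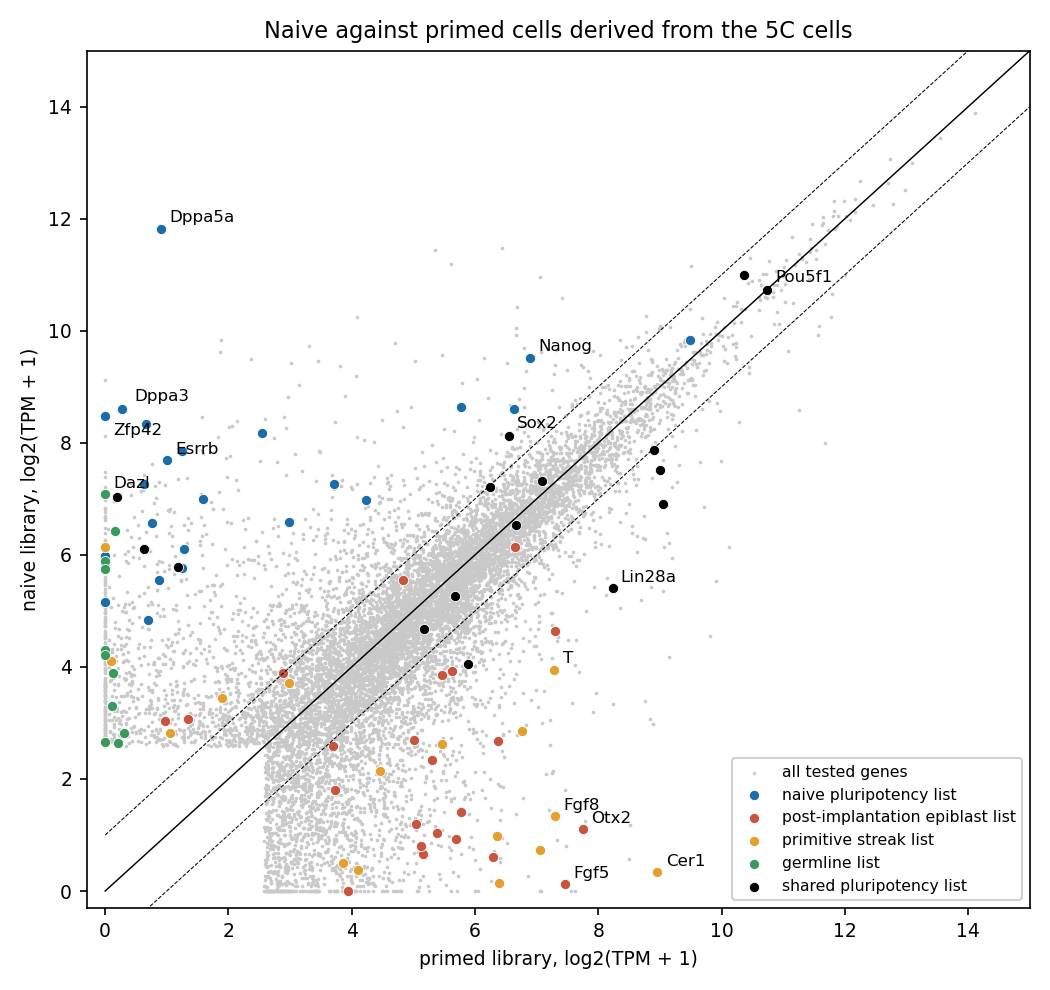
Each grey point is a tested gene, placed by its log2(TPM + 1) in the primed (horizontal) and naive (vertical) library, with the solid line at equality and the dashed lines at a difference of 1. Pou5f1 sits on the diagonal at 1698 TPM in both libraries, naive factors from Dppa5a to Dppa3 lie far above it, and Cer1, Fgf5 and Otx2 lie far below it.

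The protein-coding gene with the largest difference was Dppa5a, an RNA-binding protein of the early embryo and germ line (GRCm38 chr9:78367052-78368177), at 3631 TPM in naive and 0.87 TPM in primed cells. That is a ratio of 4173, with an exact 95% interval of 1428 to 20240 that covers the counting of reads only, as do all intervals below. Zfp42, also called Rex1 (chr8:43295063-43306980), was at 355 TPM in naive cells and had no read in primed cells, at least 1287-fold higher when the primed library is set to 3 counts. Crxos, a homeobox gene, was at 557 TPM and 0, at least 1385-fold higher. Dppa3, or Stella, a factor that protects maternal DNA methylation, was at 388 and 0.21 TPM. Rhox5, an X-linked homeobox gene, was at 913 and 2.69 TPM, and Mylpf, a myosin light chain of fast muscle, at 785 and 2.64 TPM. Rbmxl2, a germ-cell RNA-binding protein, was at 167 TPM and 0, at least 490-fold higher. Fbxo15, an F-box protein long used as a marker of embryonic stem cells, was at 324 and 0.58 TPM. The remaining members of the 10 were C130073F10Rik at 333 and 0.57 TPM and Gm10139 at 277 TPM and 0.

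At the other end stood Cer1, a secreted inhibitor of Nodal and BMP (chr4:82881751-82885148), at 0.26 TPM in naive and 497 TPM in primed cells. That is a ratio of 1911, with an interval of 542 to 16181 from 2 reads in the naive library. Krt18, an epithelial keratin, was at 0.48 and 361 TPM. Amot, a regulator of Hippo signalling and cell junctions, was at 1.26 and 364 TPM. Fgf5, the ligand that marks the post-implantation epiblast (chr5:98254184-98277030), was at 0.09 and 175 TPM, a ratio of 1941 with an interval of 348 to 76684. Slc39a8, a zinc transporter, had no read in naive cells and was at 134 TPM in primed cells, at least 703-fold higher. Cyp26a1, the enzyme that breaks down retinoic acid, was at 0 and 132 TPM, at least 352-fold higher. Otx2, a homeobox factor of the post-implantation epiblast and forebrain, was at 1.15 and 214 TPM. Pkdcc, a secreted tyrosine kinase, was at 0.75 and 177 TPM, and Enpp2, which makes lysophosphatidic acid, at 0.21 and 115 TPM. The last of the 10, Gm20721, was at 0 and 196 TPM.

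The naive pluripotency list was higher in naive cells almost throughout. Of its 24 members, 23 were at least 2-fold higher in naive cells and none was higher in primed cells, with a median difference of 5.29 beside -0.13 over all genes. All 24 reached 5 TPM in the naive library and 7 did so in the primed library. The direction of the others was set by that filter. Esrrb, an orphan nuclear receptor that sustains self-renewal, was at 207 TPM in naive and 1.00 TPM in primed cells, a ratio of 207 (141 to 317). Tfcp2l1, a target of LIF signalling, was at 153 and 0.54 TPM. Klf2, a Krueppel-like zinc finger factor, was at 288 and 4.84 TPM, and Tbx3, a T-box factor, was at 94.4 and 0.70 TPM. Prdm14, which represses the de novo DNA methyltransferases, and Nr0b1, a nuclear receptor, were at 34.9 and 57.2 TPM in naive cells and had no read in primed cells. The exception in the list was Spp1, the secreted protein osteopontin, at 917 and 717 TPM, a ratio of 1.28 (1.23 to 1.33). Nanog, named here after its value was seen, was at 735 TPM in naive and 118 TPM in primed cells, and lies in a stretch of chromosome 6 described below.

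The factors shared by both states did not move as a group. Of 16 shared pluripotency genes, 4 were higher in naive cells and 5 in primed cells, and the median was -0.06. Pou5f1 (chr17:35506018-35510772) was at 1698 TPM in both libraries, a ratio of 1.00 (0.975 to 1.03). Sox2 was at 277 and 92.8 TPM, a ratio of 2.99 (2.80 to 3.18). Higher in naive cells too were Dppa4 at 68.2 and 0.54 TPM, Dppa2 at 53.9 and 1.27 TPM, both of them early-embryo chromatin proteins, and Gdf3, a TGF-beta family ligand, at 129.9 and 0.14 TPM. Higher in primed cells were Lin28a, an RNA-binding protein that blocks let-7 maturation, at 41.4 and 299 TPM, and Utf1, a chromatin-associated factor, at 119 and 528 TPM. The other delivered factors stood apart from Pou5f1: Klf4 was at 152 TPM in naive and 12.2 TPM in primed cells, and Myc was at 20.6 and 79.7 TPM. Whether these reads came from viral or chromosomal copies cannot be told apart.

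Genes of the post-implantation epiblast went the other way. Of 23 tested members of that list, 18 were higher in primed cells and 3 in naive cells, with a median of -2.97. Pou3f1, or Oct6, was at 0.90 TPM in naive and 51.0 TPM in primed cells. Car14, a carbonic anhydrase, was at 0.52 and 77.7 TPM, Dact1, a Dishevelled-binding Wnt modulator, at 0.59 and 34.9 TPM, and Sox3, an epiblast and neural SoxB1 factor, at 1.28 and 32.0 TPM. The 3 members higher in naive cells were Nkx1-2 at 7.23 and 0.95 TPM, Sall3 at 7.43 and 1.54 TPM and Grhl3 at 13.8 and 6.38 TPM, all at low levels. For the FGF family, 5 of 8 tested genes were higher in primed cells and 1, Fgf4, in naive cells. Fgf4, the ligand made by the early epiblast, was at 95.7 and 6.93 TPM, so the TPM ratio of Fgf5 to Fgf4 was 0.00094 in naive and 25.2 in primed cells. Fgf8, a ligand of the gastrulating embryo, was at 1.52 and 157 TPM, Fgf15 at 0 and 14.3 TPM, at least 39.0-fold higher, and Fgfbp3, an FGF carrier, at 0.37 and 6.08 TPM.

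The primed library also held transcripts of the primitive streak and definitive endoderm. Of 16 tested members of that list, 11 were higher in primed cells and 4 in naive cells, with a median of -3.34. Lhx1, a LIM homeobox factor of the organizer, was at 0.67 TPM in naive and 131 TPM in primed cells. Foxa2, a pioneer factor of endoderm and node, was at 0.11 and 82.9 TPM. T, or Brachyury, was at 14.5 and 155 TPM, a ratio of 10.7 (8.87 to 13.1). On the length-normalised TPM scale Cer1 at 497 TPM was above Fgf5 at 175 TPM in the primed library. The 4 members higher in naive cells were Cdx1 at 69.3 TPM and 0, at least 244-fold higher, Cdx2 at 16.3 and 0.07 TPM, Evx1 at 6.08 and 1.08 TPM and Bmp4 at 9.86 and 2.71 TPM. Cdx1 and Cdx2 are caudal homeobox factors and known responders to Wnt, and both are also in the beta-catenin target list below.

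**Figure D2:**
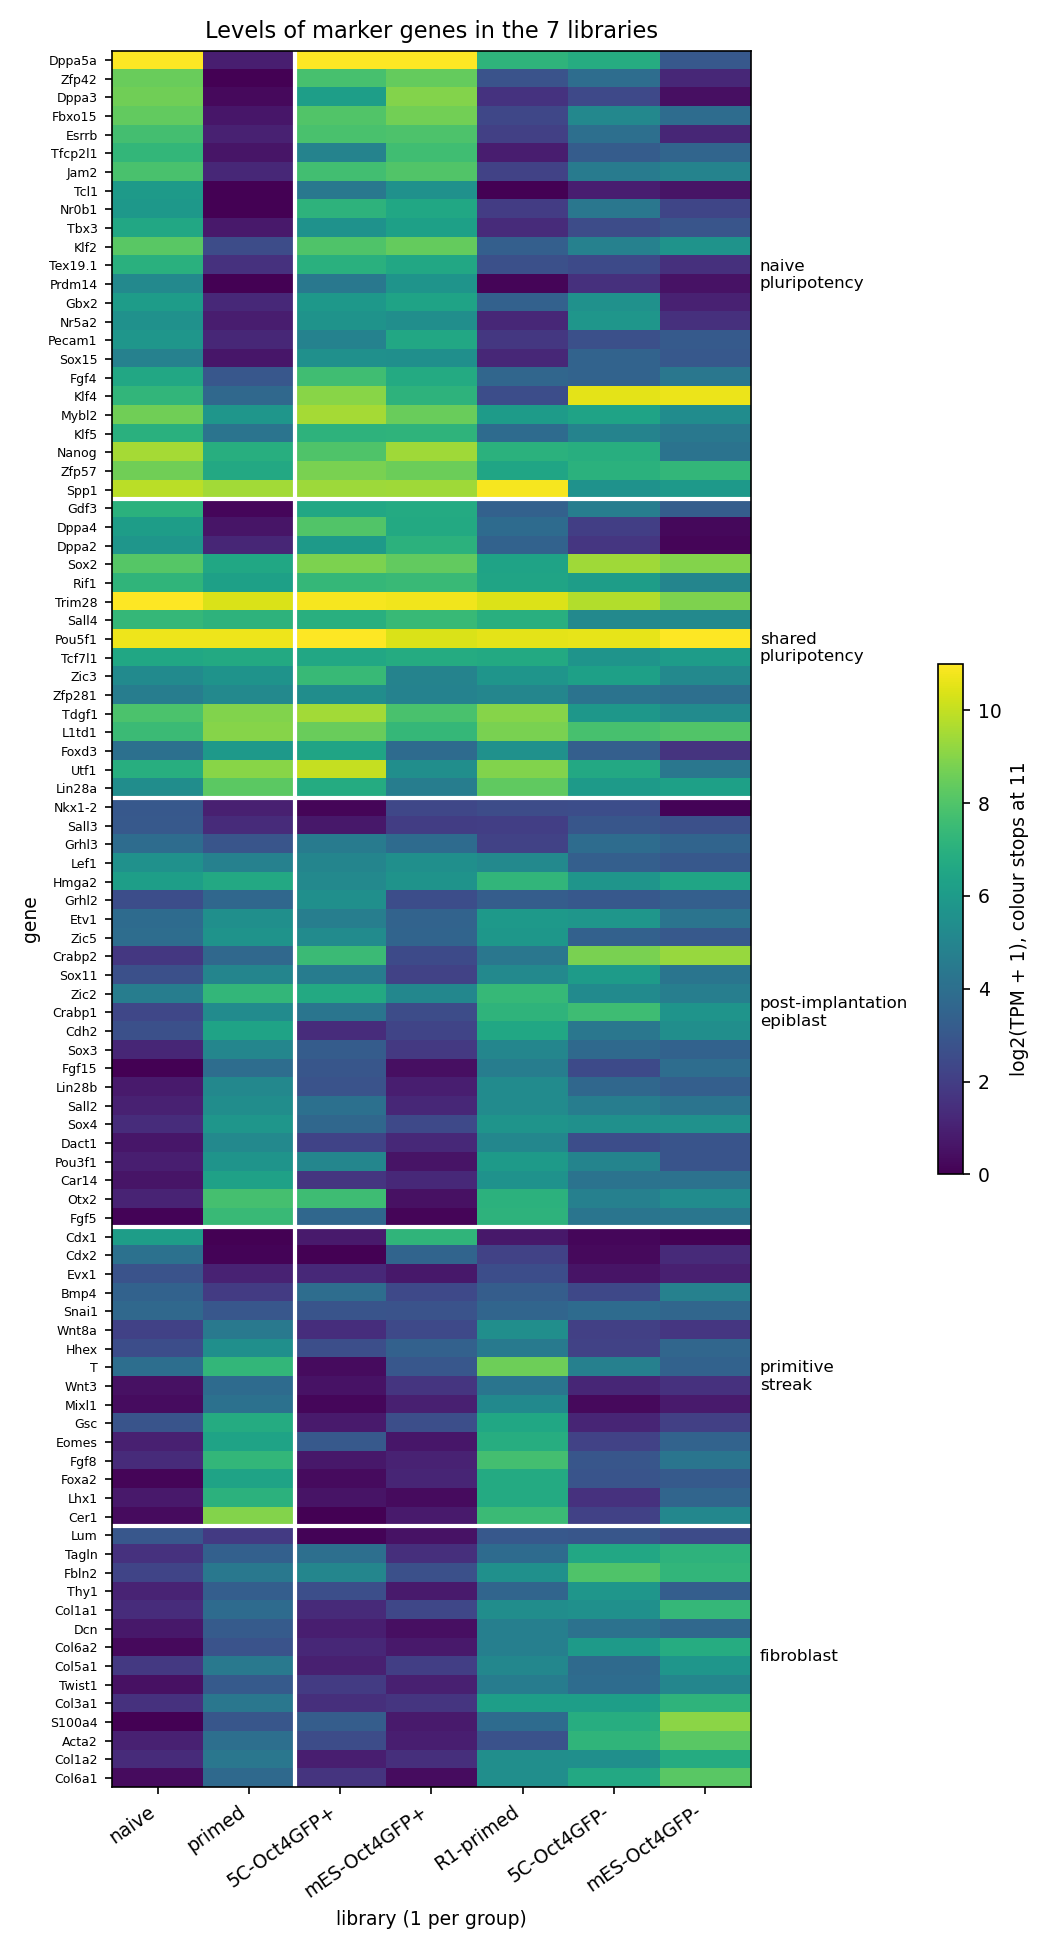
Rows are the tested members of 5 lists and columns the 7 libraries, with colour giving log2(TPM + 1) up to 11. In the naive list 24 of 24 genes are at 5 TPM or more in the naive, 5C-Oct4GFP+ and mES-Oct4GFP+ columns, against 7 in primed and 12 in R1-primed, 11 of the 16 primitive streak rows are brighter in primed than in naive cells by at least 2-fold while Cdx1, Cdx2, Evx1 and Bmp4 are darker, and the summed fibroblast genes are highest in the GFP- columns.

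ERK-responsive genes were low in the naive library, whose medium held a MEK inhibitor. Of 19 tested genes of ERK feedback and response, 16 were higher in primed cells and none in naive cells, with a median of -1.89. Egr1, an immediate early transcription factor, was at 0.50 TPM in naive and 83.8 TPM in primed cells, a ratio of 168 (81.1 to 417). Dusp4 and Dusp6, phosphatases induced by ERK and acting on it, were at 0.24 and 41.5 TPM and at 7.0 and 135 TPM. Dusp5, their nuclear relative, was at 0.71 and 17.8 TPM, and Fosl1, an AP-1 subunit, was at 0.13 and 6.13 TPM. The 3 members under 2-fold were Spry2 at 72.7 and 76.7 TPM, Ccnd1 at 138 and 129 TPM and Etv5 at 192 and 128 TPM, all abundant in both libraries. In the 5C-Oct4GFP+ population 10 of the 16 were above their level in primed cells and 5 more were nearer to it than to the naive level on the log2 scale, with Egr1 at 253 TPM.

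Targets of beta-catenin were split. Of 14 tested members, 7 were higher in naive cells and 4 in primed cells, and the median was 1.06. Naive medium held the GSK3 inhibitor CHIR99021, and whether the primed cells were also in it at harvest is not stated. Besides Cdx1 and Cdx2, Notum, a secreted enzyme that inactivates Wnt, was at 74.8 TPM in naive and 1.89 TPM in primed cells. Axin2 and Sp5, widely used readouts of the pathway and named after their values were seen, were at 105 and 10 TPM and at 149.6 and 13.3 TPM. The 4 targets higher in primed cells were Lgr5, an R-spondin receptor, at 0.05 and 33.1 TPM, Ccnd2, a G1 cyclin, at 0.87 and 20.4 TPM, T, and Dkk1, a secreted Wnt inhibitor, at 4.89 and 28.7 TPM. T and Dkk1 also belong to the streak and anterior endoderm programmes. Of the 7 targets higher in naive cells, 2 were nearer to the naive than to the primed level in 5C-Oct4GFP+ cells, where Axin2 was at 4.98 TPM.

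Wnt receptors and transducers differed more quietly. Of 26 tested, 10 were higher in primed cells and 1 in naive cells, with a median of -0.92. The largest differences were in Frizzled receptors, with Fzd2 at 2.06 TPM in naive and 47.6 TPM in primed cells, Fzd7 at 2.18 and 40.5 TPM, and Fzd8 at 2.26 and 28.4 TPM. Fzd6 and Fzd3 were at 15.8 and 8.91 TPM in primed cells and under 1 TPM in naive cells. The receptor higher in naive cells was Fzd10, at 74.9 and 13.7 TPM.

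Nodal and activin pathway genes were higher in the primed library, for 10 of 18 tested with 1 higher in naive cells and a median of -1.02. Lefty1, a feedback inhibitor of Nodal, was at 17.0 TPM in naive and 564 TPM in primed cells, a ratio of 33.2 (27.7 to 40.2). Cfc1, the Nodal co-receptor Cryptic, was at 0.66 and 47.7 TPM, and Skil, a SMAD-binding corepressor, was at 6.06 and 61.7 TPM. The gene higher in naive cells was Pcsk6, a convertase that processes Nodal, at 37.5 and 6.02 TPM.

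For the BMP pathway and the Id genes, 11 of 13 tested were higher in primed cells and Bmp4 alone was higher in naive cells, with a median of -1.38. Chrd, the secreted BMP inhibitor Chordin, was at 0.44 TPM in naive and 84.0 TPM in primed cells. The ligands Bmp2 and Bmp7 were at 0.24 and 17.6 TPM and at 5.00 and 17.5 TPM, Id1, a direct BMP target, at 4.51 and 69.0 TPM, and Smad1, a BMP signal transducer, at 6.2 and 21.8 TPM.

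LIF and STAT3 pathway genes leaned towards naive cells, with 7 of 16 higher there, 3 higher in primed cells and a median of 0.75. Socs3, a feedback inhibitor induced by STAT3, was at 65.7 TPM in naive and 7.54 TPM in primed cells, a ratio of 8.71 (7.11 to 10.8). Bcl3, a nuclear IkB protein, was at 51.2 and 0.93 TPM, Pim1, a kinase induced by STAT3, at 88.7 and 11.1 TPM, Il6ra, an interleukin receptor chain, at 9.78 and 0.97 TPM, and Stat3 itself at 76.6 and 21.8 TPM. The 3 genes higher in primed cells were Jak2, Ptpn11 and Socs2, with ratios of 3.34, 2.40 and 2.02 in favour of primed.

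**Figure D3:**
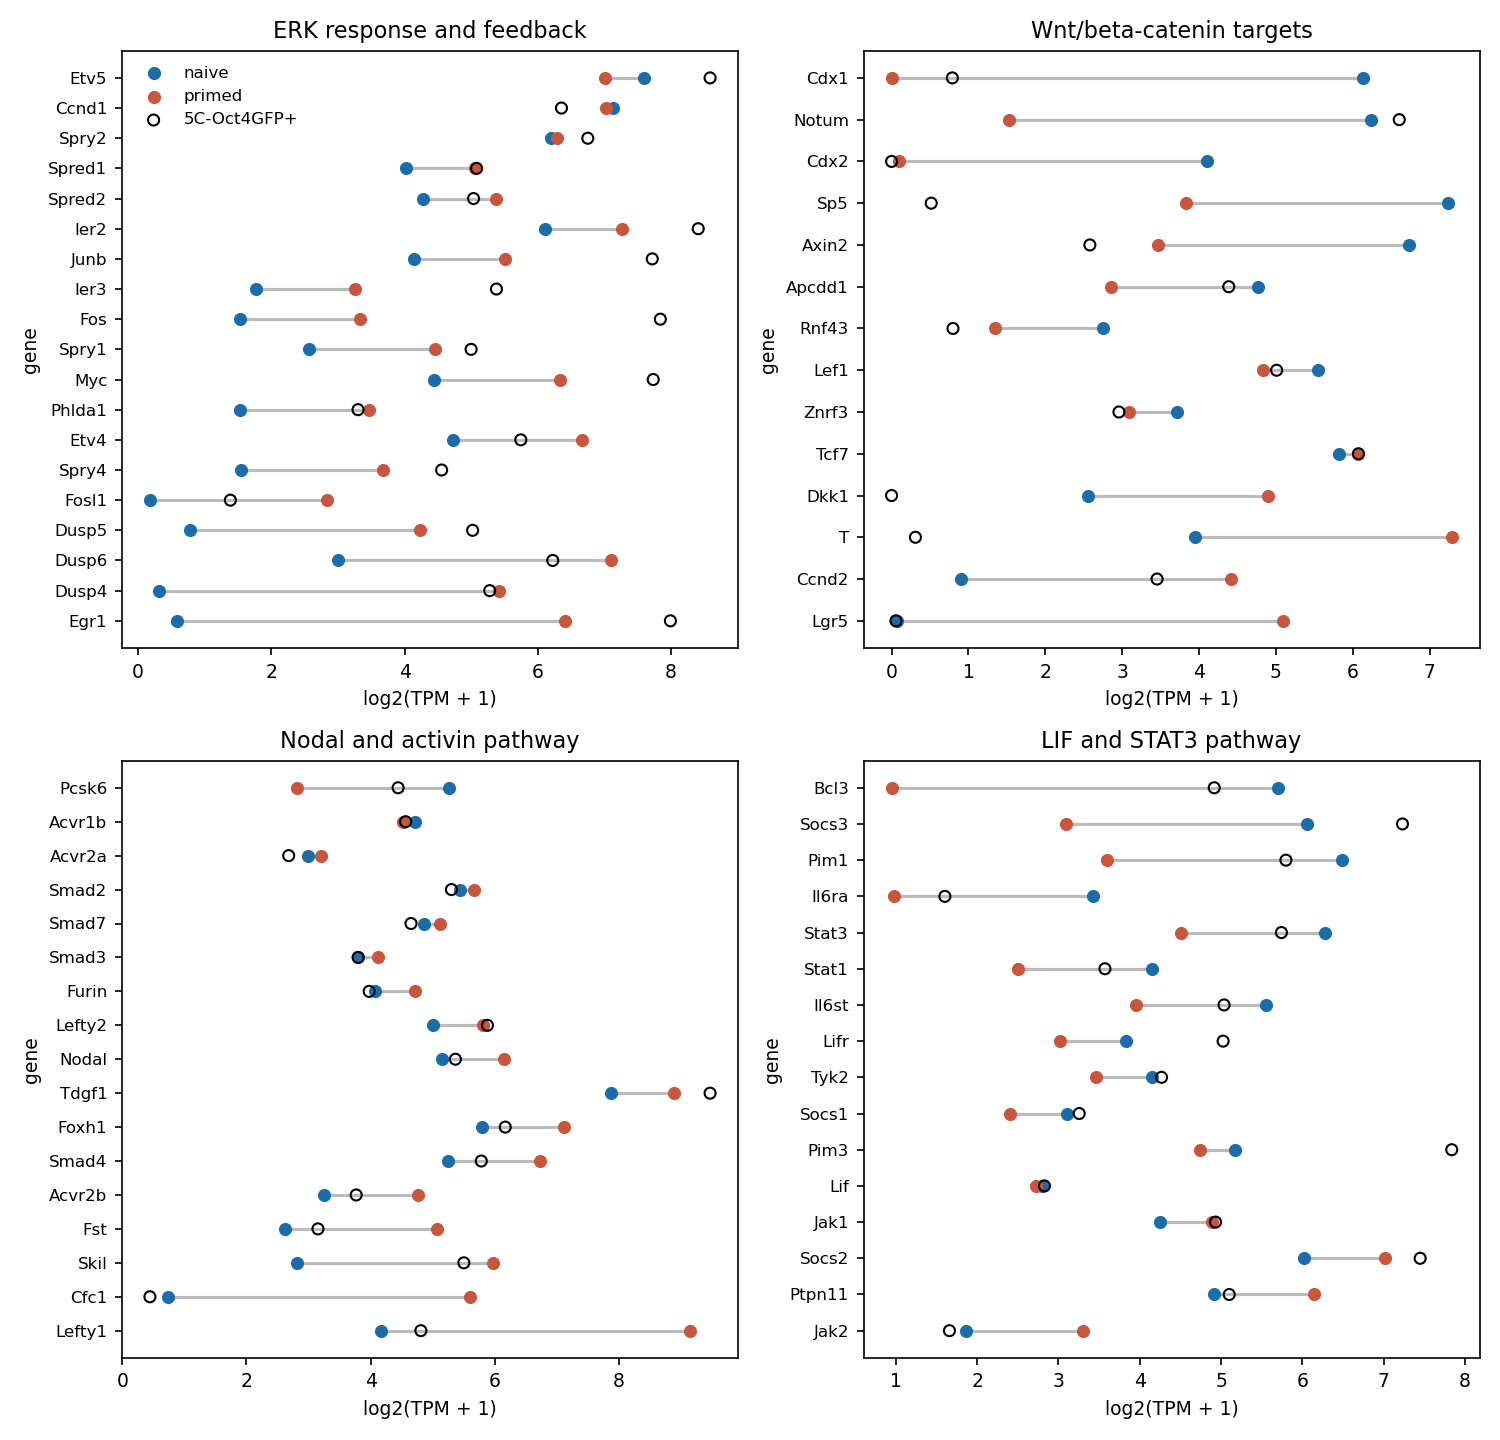
For 4 signalling lists, log2(TPM + 1) of tested genes, all but 1 of the Nodal and activin list, is drawn for naive (blue), primed (red) and 5C-Oct4GFP+ (open circle) libraries. In the ERK panel 16 of 19 red points lie at least 1 above the blue, and the open circles lie near or beyond the red ones, while for Sp5, Axin2, Cdx1 and Cdx2 the open circles are at or near the lower end.

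**Figure D4:**
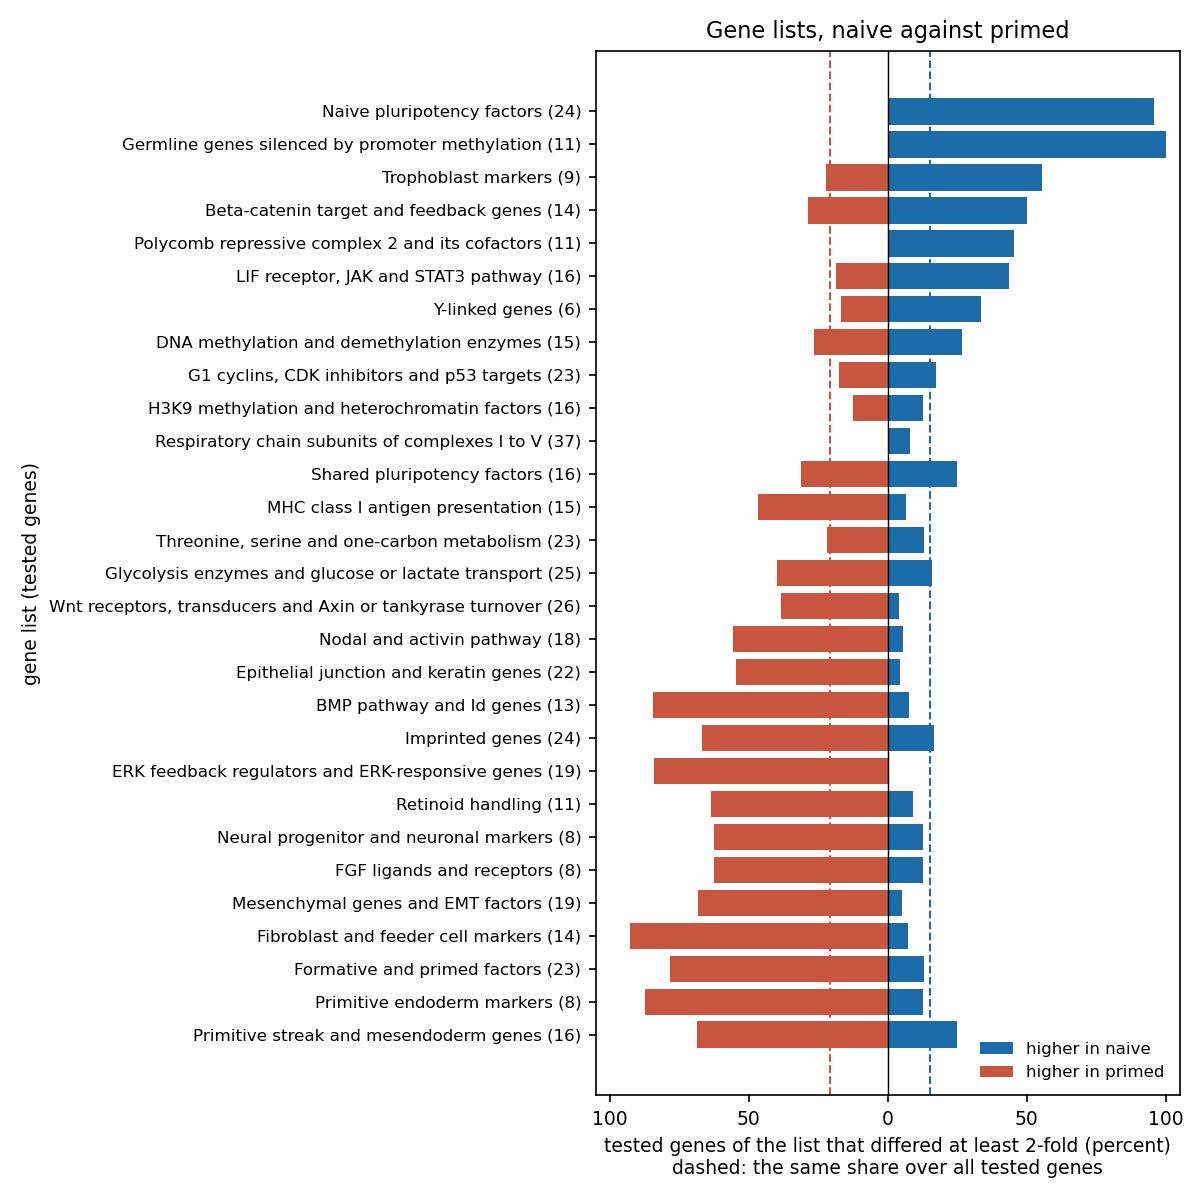
For each list with at least 6 tested genes (number in brackets), bars give the percent of tested genes at least 2-fold higher in naive (blue) or primed (red) cells, with dashed lines at the shares over all genes, 15.1% and 20.7%. The naive factors reach 95.8% towards naive, the respiratory chain stays under both dashed lines, and the BMP and ERK lists exceed 84% towards primed. The germline bar is at 100% towards naive, a direction set by the filter because each tested gene was admitted through the naive library. In the fibroblast list each tested gene was likewise admitted through 1 library alone. Most genes of the naive list were admitted through the naive library alone.

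The DNA methylation machinery changed in its parts. Dnmt3b and Dnmt3a, the enzymes that place new methyl groups, were at 115 TPM in naive and 844 TPM in primed cells and at 13 and 82.8 TPM, ratios of 7.35 (7.02 to 7.69) and 6.39 (5.61 to 7.31). Dnmt1, the maintenance enzyme, was at 143 and 109.7 TPM, so the TPM ratio of Dnmt3b to Dnmt1 was 0.804 in naive and 7.69 in primed cells. Of the 15 genes in the list 4 were higher in primed cells, namely these de novo enzymes, the oxidase Tet3 at 1.15 and 9.95 TPM and the glycosylase Tdg at 74.5 and 166 TPM. Also 4 were higher in naive cells: Dnmt3l, a catalytically inactive partner of the de novo enzymes, at 20.2 and 0.47 TPM, the deaminase Apobec1 at 7.51 and 1.27 TPM, the oxidase Tet2 at 7.44 and 1.59 TPM, and Uhrf1, which guides Dnmt1, at 357 and 174 TPM.

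Germline genes that are known to be silenced by promoter methylation in somatic cells were read in naive cells and nearly unread in primed cells. Of 27 such genes in the tables, 11 met the minimum of 5 TPM, each through the naive library, so their shared direction was set by that filter. Summed over the 27, the list was at 442 TPM in naive and 3.05 TPM in primed cells. Dazl, an RNA-binding protein of germ cells, was at 135 TPM with no primed read, at least 812-fold higher. Fkbp6, a co-chaperone in the piRNA pathway, was at 85.4 and 0.12 TPM. Hormad1 and Syce1, proteins of the meiotic chromosome axis and synaptonemal complex, were at 58.5 and 18.8 TPM, at least 162-fold and 54.6-fold higher, and Stk31, a germ-cell kinase with a Tudor domain, at 52.6 TPM, at least 278-fold higher. The same 5 genes in 5C-Oct4GFP+ cells were between 3.18 TPM for Fkbp6 and 15.7 TPM for Hormad1. Calcoco2, from the list of early cleavage genes, was at 142 and 0.53 TPM. Of the 18 genes of that list in the tables, 14 were under 1 TPM in both libraries and 2 met the minimum, the other being Eif1a at 206 and 126 TPM.

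Promoters of germline genes of this kind are known to be rich in CpG and often to hold the E-box CACGTG, the site bound by MGA and MAX in the E2F6 complex that silences such genes. The 250 bases before the start of the 5 genes with the largest differences are printed here from RefSeq on GRCm38.p6, each on the strand of its gene, with CACGTG in capitals. A link between these genes and DNA methylation was not tested here.
Dazl (chr17:50293621-50293870, minus strand): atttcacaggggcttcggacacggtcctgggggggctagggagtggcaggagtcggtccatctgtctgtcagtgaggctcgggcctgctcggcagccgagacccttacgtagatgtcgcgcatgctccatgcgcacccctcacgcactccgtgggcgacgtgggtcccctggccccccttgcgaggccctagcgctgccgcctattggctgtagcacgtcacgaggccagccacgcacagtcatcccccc
Fkbp6 (chr5:135350045-135350294, minus strand): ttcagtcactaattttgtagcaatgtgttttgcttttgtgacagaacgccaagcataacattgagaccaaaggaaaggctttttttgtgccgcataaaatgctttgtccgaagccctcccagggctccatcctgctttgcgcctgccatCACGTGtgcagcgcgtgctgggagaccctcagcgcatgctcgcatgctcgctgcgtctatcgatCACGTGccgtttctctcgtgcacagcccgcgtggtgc
Hormad1 (chr3:95559427-95559676, plus strand): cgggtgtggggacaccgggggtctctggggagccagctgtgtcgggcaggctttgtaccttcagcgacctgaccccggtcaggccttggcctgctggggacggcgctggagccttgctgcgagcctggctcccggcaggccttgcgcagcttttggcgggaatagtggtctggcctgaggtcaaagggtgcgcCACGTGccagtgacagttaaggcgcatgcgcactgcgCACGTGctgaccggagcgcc
Stk31 (chr6:49395289-49395538, plus strand): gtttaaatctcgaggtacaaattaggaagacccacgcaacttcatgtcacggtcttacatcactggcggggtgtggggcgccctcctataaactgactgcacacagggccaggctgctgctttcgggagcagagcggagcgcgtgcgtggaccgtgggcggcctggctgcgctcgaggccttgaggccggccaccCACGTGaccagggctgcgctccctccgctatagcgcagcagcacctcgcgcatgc
Syce1 (chr7:140787855-140788104, minus strand): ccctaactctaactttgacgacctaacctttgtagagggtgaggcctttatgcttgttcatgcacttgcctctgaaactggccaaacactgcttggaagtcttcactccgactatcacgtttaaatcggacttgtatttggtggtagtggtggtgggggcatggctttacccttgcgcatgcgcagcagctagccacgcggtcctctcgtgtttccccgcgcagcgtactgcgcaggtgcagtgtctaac

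CACGTG reads the same on both strands and occurred 2 times in the windows of Fkbp6 and Hormad1, once in that of Stk31 and not in those of Dazl and Syce1. The 5 windows held 20, 17, 19, 21 and 13 CpG dinucleotides in the order printed. A promoter was found for 23 genes of the list, and 13 (56.5%) held the motif, beside 1854 of 27025 genes with a promoter (6.86%). Of the 23, 9 met the minimum of 5 TPM, all of them at least 2-fold higher in naive cells, and 4 of these held it (44.4%). Among the other 14, which did not meet the minimum, it was in 9 (64.3%). Since every tested gene of the list was higher in naive cells, this split is by level. It cannot show whether the motif goes with the difference between the states. The median number of CpG was 17 over the list's promoters and 6 over all promoters. A match describes these letters only.

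Imprinted genes were mostly higher in primed cells, with 16 of 24 tested higher there and 4 higher in naive cells and a median of -1.54. Grb10, an adaptor that restrains insulin signalling, was at 9.11 TPM in naive and 302 TPM in primed cells, a ratio of 33.1 (28.9 to 38.2). The growth factor gene Igf2 and its neighbour H19 were at 1.40 and 64.4 TPM and at 3.34 and 70.0 TPM, Dlk1, a Notch-related ligand, at 0.20 and 34.5 TPM, and Magel2, a MAGE family gene, at 0.32 and 14.8 TPM. The 4 higher in naive cells were Plagl1 at 82.5 and 7.30 TPM, Slc38a4 at 155 and 22.8 TPM, Usp29 at 5.26 and 0.31 TPM and Zrsr1 at 17.7 and 5.47 TPM. Allele of origin was not measured, so these are total levels. At the X-inactivation centre Ftx, a noncoding neighbour of Xist, was at 2.20 and 9.89 TPM, and Rlim, a ubiquitin ligase, at 18.6 and 24.4 TPM. Among 6 tested Y-linked genes the germline genes Uba1y and Zfy1 were at 86.6 and 15.6 TPM in naive cells and at 0.28 TPM and 0 in primed cells, whereas Kdm5d, a histone demethylase, was at 8.79 and 19.9 TPM.

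Epithelial junction and keratin genes were higher in primed cells for 12 of 22 tested, with 1 higher in naive cells and a median of -1.19. Besides Krt18, its partner Krt8 was at 9.54 TPM in naive and 434 TPM in primed cells, the claudins Cldn6 and Cldn7 at 7.39 and 456 TPM and at 3.32 and 151 TPM, and Esrp1, an epithelial splicing regulator, at 0.92 and 86.0 TPM. Cdh1, or E-cadherin, named after its value was seen, was at 302 and 284 TPM, a ratio of 1.06 (1.03 to 1.10). The member higher in naive cells was Cldn4 at 45.5 and 12.9 TPM. Mesenchymal genes were higher in primed cells as well, for 13 of 19 tested with 1 higher in naive cells and a median of -2.19. The 24 listed mesenchymal genes nevertheless summed to 1406 TPM in naive and 1427 TPM in primed cells. At 5 TPM or more were 9 of them in naive and 18 in primed cells. Cdh2, or N-cadherin, was at 5.38 and 81.7 TPM, so the TPM ratio of Cdh2 to Cdh1 was 0.0178 in naive and 0.288 in primed cells. Mmp2 and Mmp14, matrix metalloproteinases, were at 1.00 and 28.2 TPM and at 2.85 and 35.6 TPM, S100a6, a calcium-binding protein, at 9.18 and 97.7 TPM and Acta2, smooth muscle actin, at 0.99 and 15.2 TPM. Fn1, fibronectin, was higher in naive cells at 432 and 196 TPM.

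Several mesenchymal genes are also fibroblast markers, and 13 of the 14 tested fibroblast genes were higher in primed cells, with a median of -2.57. Each of the 14 met the minimum of 5 TPM in 1 library alone, 13 in primed and 1 in naive cells. Their directions were therefore set by that filter. Their 20 listed genes summed to 28.1 TPM in naive cells, 188 in primed, 85.8 in 5C-Oct4GFP+, 30.8 in mES-Oct4GFP+, 461 in R1-primed, 1148 in the GFP- fraction of 5C medium and 2238 in that of mES medium, and 1, 13, 5, 1, 19, 18 and 18 of them were at 5 TPM or more. The collagens Col1a1, Col1a2 and Col3a1 were at 1.63, 1.53 and 2.0 TPM in naive and at 13.3, 19.9 and 19.3 TPM in primed cells. Of other defining markers, Thy1 was at 1.15 and 8.80 TPM, Twist1 at 0.41 and 7.73 TPM, Postn at 0.65 and 3.45 TPM and Prrx1 at 0.09 and 2.95 TPM. Col6a1 at 0.26 and 12.5 TPM and S100a4 at 0 and 6.74 TPM completed the largest differences, and Lum, higher in naive cells, was at 6.98 and 2.70 TPM. The part of feeder or unconverted fibroblast RNA in the mesenchymal, imprinted and other primed-higher lists was not tested, and in bulk RNA fewer cells of a type and less RNA per cell cannot be told apart.

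Glycolysis was marked by exchanges between isoenzymes. Of 25 tested genes of glycolysis and of glucose or lactate transport, 10 were higher in primed cells and 4 in naive cells, with a median of -0.67. Ldha, which favours lactate production, was at 254 TPM in naive and 3279 TPM in primed cells, while Ldhb was at 791 and 133 TPM, so the TPM ratio of Ldha to Ldhb was 0.321 in naive and 24.7 in primed cells. The phosphofructokinases behaved in the same manner: Pfkl was at 31.0 and 223 TPM, Pfkp at 160.0 and 13.4 TPM, and their ratio was 0.194 and 16.6. Slc16a3, the lactate exporter MCT4, was at 1.72 and 146 TPM, a ratio of 85.1 (57.0 to 133). In 5C-Oct4GFP+ cells the Ldha to Ldhb and Pfkl to Pfkp ratios were 1.63 and 0.585, between those of the derived cultures. In mES-Oct4GFP+ and R1-primed cells they were 0.579 and 18.8 for Ldh and 0.452 and 13.1 for Pfk. The other genes higher in naive cells were Hk1 at 84.4 and 19 TPM and the glucose transporter Slc2a3 at 755 and 261 TPM. Ldhb and Slc2a3 lie in the stretch of chromosome 6 described below, and without it 2 glycolysis genes were higher in naive cells.

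Nuclear-encoded subunits of the respiratory chain differed little. Of 37 tested, 3 were higher in naive cells and none in primed cells, with a median of -0.01. These 3 were all subunits of cytochrome oxidase: Cox7a1, the muscle form, was at 101 TPM in naive and 18.6 TPM in primed cells, Cox6c at 1010.2 and 436 TPM and Cox5a at 1082 and 511 TPM. The genes nearest to a 2-fold difference after these were Uqcrfs1 at 98.0 and 189 TPM and Cox6a1 at 719 and 463 TPM. Genes encoded by the mitochondrial genome were not used here.

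In amino acid and one-carbon metabolism Tdh stood alone. This threonine dehydrogenase, on which mouse embryonic stem cells depend, was at 725 TPM in naive and 4.18 TPM in primed cells, a ratio of 173 (124 to 251). Of 23 tested genes 3 were higher in naive cells and 5 in primed cells, with a median of -0.48. The other naive-higher genes were Amt, of the glycine cleavage system, at 123 and 26.5 TPM, and Asns, asparagine synthetase, at 657 and 215 TPM. Phgdh, the first enzyme of serine synthesis, was at 82.3 and 261 TPM and Chac1, which degrades glutathione, at 4.60 and 19.3 TPM. Retinoid genes followed Cyp26a1, with 7 of 11 tested higher in primed cells and a median of -1.93. They included the receptor Rxrg at 0 and 15.5 TPM and the binding proteins Crabp1 and Rbp4 at 38.6 and 7.67 TPM in primed and 4.07 and 0.49 TPM in naive cells. Aldh1a2, which makes retinoic acid, was higher in naive cells at 8.60 and 0.80 TPM.

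Polycomb repressive complex 2 genes were higher in naive cells for 5 of 11 tested and for none in primed cells, with a median of 0.90. Suz12, a core subunit, was at 184 TPM in naive and 59.2 TPM in primed cells, a ratio of 3.11 (2.93 to 3.31). Eed, another core subunit, was at 156 and 69.9 TPM, and the cofactors Epop, Mtf2 and Aebp2 were at 147 and 48.7, 177 and 66.8, and 162 and 65.3 TPM. H3K9 methylation and heterochromatin factors showed 2 of 16 in each direction and a median of 0.04. Suv39h1 and Ehmt1, both H3K9 methyltransferases, were at 52.1 and 71.9 TPM in primed and 18.9 and 32.6 TPM in naive cells, and the demethylase Kdm3a and the ATPase Morc3 were at 99.7 and 84.1 TPM in naive and 39.8 and 35.1 TPM in primed cells.

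G1 cyclins, CDK inhibitors and p53 targets were balanced, with 4 of 23 in each direction and a median of 0.10. E2f1 was at 59.9 TPM in naive and 16.2 TPM in primed cells and Cdkn2a at 37.4 and 12.1 TPM. Mycl was at 16.5 and 58.2 TPM and Cdkn1c, a CDK inhibitor and imprinted gene, at 4.07 and 13.3 TPM. For MHC class I antigen presentation 7 of 15 tested were higher in primed cells and 1 in naive cells, with a median of -0.42. B2m, the light chain of class I molecules, was at 13.7 and 100 TPM, and the immunoproteasome subunits Psmb8 and Psmb9 and the transporter Tap2 were at 12.6, 6.84 and 5.04 TPM in primed cells and at 0.14, 0.30 and 0 TPM in naive cells. H2-M5, a class I gene with close relatives whose reads may be split, was higher in naive cells at 91.6 and 1.44 TPM.

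Markers of other lineages were read at moderate levels. Of 8 tested primitive endoderm markers 7 were higher in primed cells, with a median of -2.97. Sox17 was at 0.94 and 60.4 TPM and Gata6 at 0.41 and 28.8 TPM, transcription factors shared with definitive endoderm, and Foxa1 was at 0.07 and 7.45 TPM. The basement membrane genes Col4a1 and Lama1 went apart, at 0.94 and 25.3 TPM and at 20.0 and 1.09 TPM. Gata4 was at 0.58 and 4.19 TPM and Dab2 at 1.77 and 7.03 TPM. Of 9 tested trophoblast markers 5 were higher in naive cells and 2 in primed cells, with a median of 1.14. Tfap2c, an AP-2 factor also expressed in naive and germ cells, was at 58.4 and 3.39 TPM and Tfap2a at 6.40 and 0.17 TPM. Tead4 was at 17.2 and 6.26 TPM and Krt7 at 0.43 and 14.5 TPM. Of the defining trophoblast markers, Elf5 was at 0 and 0.77 TPM and Esx1 at 0.28 and 0.27 TPM, and Gata3 was at 0 in naive and 3.39 TPM in primed cells. Of 8 tested neural markers 5 were higher in primed cells, with a median of -2.14, led by Nes, the filament nestin, at 6.78 and 112 TPM, and including Nefl at 39.8 and 160 TPM, Map2 at 2.45 and 16.1 TPM, Six3 at 0 and 6.0 TPM and Fabp7 at 0 and 5.0 TPM. Tubb3, a neuronal tubulin, was higher in naive cells at 185 and 52.4 TPM. Of 11 endothelial and blood markers Cd34 alone met the minimum, at 5.61 and 5.16 TPM.

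The difference was then looked up in mES-Oct4GFP+ and R1-primed cells, which share no library with the naive and primed pair. These cells differ in line, origin and passage as well as in state, and the serum and LIF medium of mES-Oct4GFP+ cells is not described as holding either inhibitor, so they are not replicates. In that pair 15.8% of the 11601 genes were higher by 2-fold or more in mES-Oct4GFP+ and 16.2% in R1-primed cells, and by any amount 48% and 51.9%. Of the 1746 genes higher in naive cells, 1692 (96.9%) had the same sign in that pair, 1436 (82.2%) by at least 2-fold, and 10 differed at least 2-fold the other way. Of the 2400 genes higher in primed cells, 2318 (96.6%) had the same sign, 1684 (70.2%) by at least 2-fold, and 11 differed at least 2-fold the other way. Across the 11601 genes the differences of the pairs had a Pearson r of 0.92 and a Spearman rho of 0.87, which describes genes within these 4 libraries. By list, 23 naive factors, 10 germline genes and 5 Polycomb genes passed 2-fold towards mES-Oct4GFP+ cells, and 18 post-implantation genes, 13 ERK-responsive genes and 12 streak genes towards R1-primed cells. Egr1 and Dusp4 were at 0.32 and 0.23 TPM in mES-Oct4GFP+ cells, as low as in the naive library, and Axin2 was at 98.3 TPM. The shares and correlations above therefore rest on a library whose label is in doubt, and it cannot be told from them whether its culture held the inhibitors. The exception among the naive factors was Spp1, at 685 TPM in mES-Oct4GFP+ and 1840.1 TPM in R1-primed cells. In R1-primed cells 12 of the 24 naive factors were at 5 TPM or more, beside 7 in primed cells, with Dppa5a at 143 TPM, Zfp42 at 6.02 TPM and Esrrb at 3.28 TPM.

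The common starting population lay between the derived cultures for most genes. Of the 1746 naive-higher genes, 5C-Oct4GFP+ cells were nearer on the log2 scale to the naive than to the primed level, or beyond the naive level, for 62.3%. Of the 2400 primed-higher genes they were nearer to or beyond the primed level for 51.4%. Lists departed from these shares in opposite ways. The naive factors were on the naive side for 22 of 23 genes and the ERK-responsive genes on the primed side for 15 of 16. The post-implantation genes were on the primed side for 13 of 18, with Otx2 at 189 TPM and Fgf5 at 11.7 TPM. None of the 11 streak genes was on the primed side, and Cer1 had no read and T was at 0.24 TPM. Dnmt3l was at 525 TPM, far above both derived cultures.

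Along the chromosomes, a stretch of chromosome 6 was higher in the naive library than in each of the primed, 5C-Oct4GFP+ and mES-Oct4GFP+ libraries, and it was found after the values were seen. The stretch ran on chromosome 6 from 122 Mb, the whole Mb below Dppa3, to the last gene at 149.6 Mb. Of its 135 tested genes, 66 (48.9%) were at least 2-fold higher in naive cells and 15 were at least 2-fold higher in primed cells. Over all tested genes those shares were 15.1% and 20.7%. The rise was uneven. With the genome-wide median at 0, naive minus primed was -3.41 for Phc1 and -0.79 for Rimklb, before Nanog. Further along it was -1.54 for Gabarapl1, -1.96 for Magohb and -1.64 for Dusp16, with Borcs5 between them at 0.70. Near the end it was -0.83 for Dennd5b and -1.40 for Amn1, but 0.41 for Caprin2 and 0.44 for Resf1. Among 90 genes of the stretch at 5 TPM or more in all 5 GFP+ and primed libraries, the median difference after setting the genome-wide median to 0 was 0.81 for naive minus primed, 0.70 for naive minus 5C-Oct4GFP+ and 0.78 for naive minus mES-Oct4GFP+. These are 1.76-fold, 1.63-fold and 1.72-fold. The same genes had a median of -0.00 for primed minus R1-primed and -0.07 for mES-Oct4GFP+ minus R1-primed, and the other 282 genes of chromosome 6 had medians of -0.03, 0.06 and -0.06 for the first 3 differences. Genes with no particular tie to pluripotency shared the shift: Cops7a, a signalosome subunit, was at 626 TPM in naive and 179 TPM in primed cells, Mrps35, a mitochondrial ribosomal protein, at 261 and 106 TPM, and Strap, a protein of the SMN complex, at 411 and 189 TPM. The 3 genes, in 5C-Oct4GFP+ and then mES-Oct4GFP+ cells, held 181 and 222, 125 and 92.5, and 169 and 163 TPM. Of the 90 genes 60 (66.7%) were higher in the naive library than in each of primed, mES-Oct4GFP+ and 5C-Oct4GFP+, beside 1837 of 8429 (21.8%) elsewhere. Nanog, Dppa3, Gdf3, Slc2a3, Ldhb, Apobec1, Aebp2, Tead4 and Tuba3b lie in the stretch and are higher in naive cells, and so do Ccnd2 and Eno2, which are higher in primed cells. Of the differences computed, those with a median away from 0 in this stretch were the 3 that involve the naive library. With the stretch left out, 1680 genes were higher in naive and 2385 in primed cells, and 21 of the remaining naive factors were higher in naive cells. No DNA was measured, and what sets these levels was not tested.

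**Figure D5:**
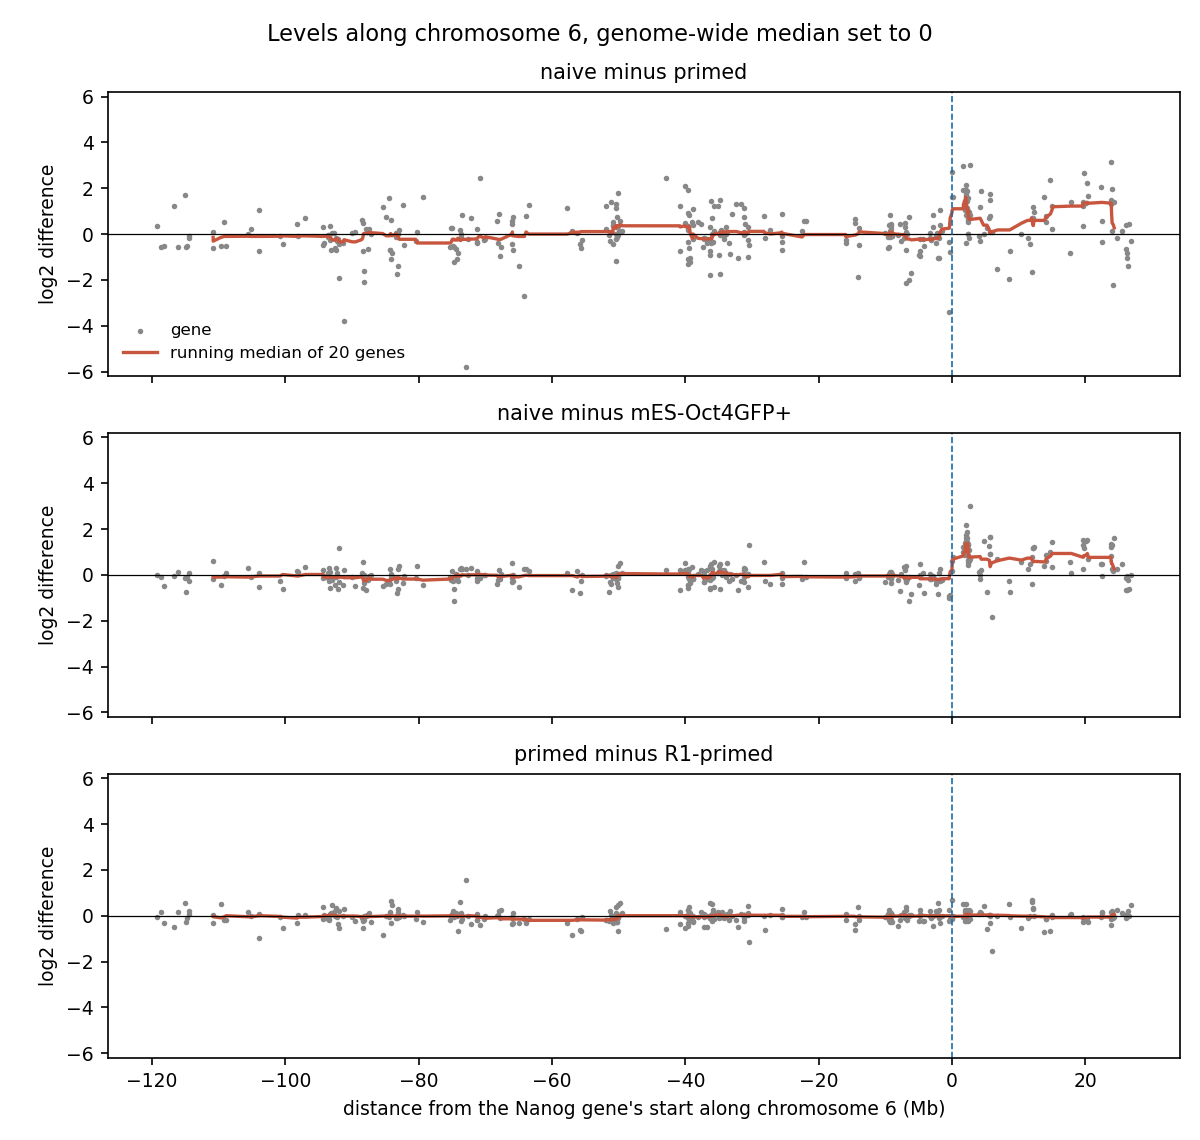
Points are genes at 5 TPM or more in the 5 libraries along chromosome 6, placed by distance in Mb from the start of Nanog (dashed line), with the log2 difference after setting the genome-wide median to 0, and the red line is the median of 20 neighbouring genes. To the right of the dashed line the red line rises for naive minus primed and naive minus mES-Oct4GFP+, and stays near 0 for primed minus R1-primed.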

How the data were processed

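RNA of each of the 7 libraries was extracted with Trizol and prepared with an Illumina TruSeq kit. The submitters' processing notes name Bowtie, RSEM and mm10, and versions, read length and the counting strand are not given in the sources used here. The deposited tables hold, per gene, the expected counts estimated by RSEM, TPM and FPKM, all made by the authors. TPM was used as deposited, FPKM only as an alternative scale, and the expected counts, rounded to whole numbers, for intervals and floors. Gene symbols, types and coordinates came from GENCODE M21 on GRCm38, which covered 28756 of 29267 genes. Of 646 list entries 628 matched by symbol, 3 by an older symbol and 15 did not match.

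Differences were computed as log2(TPM + 1) with a pseudocount of 1 for genes at 5 TPM or more in either library, on which scale changes of low genes are understated. Ratios are of TPM, with exact Clopper-Pearson 95% intervals of the count share that cover counting error only, and a library at 0 was set to 3 counts for a lower bound. With 1 library per group no test was made. Genes were named by a rule: up to 5 per list by size of difference, defining markers, 10 protein-coding genes per direction, the delivered factors, Xist and 4 Y-linked genes, and the largest opposite differences in the second pair. Others are marked as named after their values were seen, or are the exceptions of a count, and 2 genes that the rule names are not reported here. The members and lists were chosen with earlier results of these data known. Reads of near-identical genes, such as Gapdh, Pgk1-rs7, Gm genes and zinc finger clusters, may be split with error. Promoters are RefSeq's. The steps were tested on simulated data. Intervals used scipy 1.17.1, tables pandas 2.3.3 and numpy 2.4.6, and figures matplotlib 3.10.9, under Python 3.11.15. Alternatives were pseudocounts, minimum levels, FPKM, rescaling, an interval rule and, added after seeing the data, leaving out distal chromosome 6.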

Additional observations from a re-analysis of the deposited data

Results flagged for a closer look

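For 21 genes that differed at least 2-fold between naive and primed cells, the pair of mES-Oct4GFP+ and R1-primed cells differed at least 2-fold the other way. The difference between the pairs was not tested, since each group was 1 library. The largest was Gm11032, at 0 TPM in naive and 22.1 TPM in primed cells from 4 reads, with a second-pair difference of 3.88. Gm10337 rested on fewer reads still, with an interval of its naive to primed ratio from 0.139 to 158, and had -3.56 in the second pair. Gm3055 was at 17.4 and 7.87 TPM and had -3.24. Sprr2a3, a cornified envelope gene of a family of close copies, was at 7.79 and 1.76 TPM and had -2.74.

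Genes with better supported values followed. Kdm5d, the Y-linked demethylase, was at 8.79 TPM in naive and 19.9 TPM in primed cells, a difference of -1.09, and at 9.76 TPM in mES-Oct4GFP+ and 0.82 TPM in R1-primed cells, a second-pair difference of 2.56. Lum, a matrix proteoglycan of fibroblasts, had 1.11 and -2.51, and Evx1, a streak homeobox gene, had 1.77 and -1.90. Dnmt3l had 3.85 and -1.43, at 20.2 TPM in naive, 0.47 TPM in primed, 5.31 TPM in mES-Oct4GFP+ and 16.0 TPM in R1-primed cells.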

How the results depend on the processing

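No paired analysis was possible because the labels give no replicate numbers and each group is 1 library. For the count of 1746 genes the lowest alternative was 1406, with a minimum of 10 TPM, and for that of 2400 it was 1729, on FPKM. The highest were 2549 and 3389, with a minimum of 1 TPM. Both counts stayed within 1.5 times under each alternative, and no direction turned. List counts that left that range were as follows, against 5 TPM on the TPM scale. With a minimum of 10 TPM, genes higher in naive cells were 1 instead of 3 for the post-implantation list, 2 instead of 4 for the streak list, 2 instead of 4 for DNA methylation and 7 instead of 11 for the germline list, and genes higher in primed cells were 3 instead of 5 for the FGF list, 7 instead of 13 for the mesenchymal list, 3 instead of 5 for the neural list and 7 instead of 13 for the fibroblast list. On FPKM, they were 0 and 2 for post-implantation and DNA methylation genes higher in naive cells, and 1 instead of 3 for LIF, 3 for neural and 8 for fibroblast genes higher in primed cells. Of the 481 differences of single genes, 160 left their counting interval on FPKM, each of the 160 nearer 0, by a median of 0.49 and at most 0.86 on the log2 scale. With a minimum of 1 TPM or none, 20 germline genes were higher in naive cells. Without distal chromosome 6, glycolysis genes higher in naive cells were 2 instead of 4. FPKM and higher minimums leave fewer genes to count, and the cause of other changes was not tested.

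With 1 library per state, differences between cultures of the same state were not measured. State and medium move together and cannot be told apart. Depth limits genes near the floor of 3 counts.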

Other observations

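A cluster of KRAB zinc finger genes on distal chromosome 4 was at higher levels in naive than in primed cells, a stretch noticed after the values were seen. Between 145 and 148 Mb, 17 of 18 tested members of the cluster were at least 2-fold higher in naive cells, with a median difference of 4.94, beside 15.1% of all tested genes. In the second pair 17 were at least 2-fold higher in mES-Oct4GFP+ than in R1-primed cells, beside 15.8% of all tested genes. Members under 5 TPM in primed cells, such as Zfp980 and Rex2, were admitted through the naive library, so their direction was set by that filter. Zfp990 was at 397 TPM in naive and 30.3 TPM in primed cells, Zfp980 at 273 and 2.54 TPM, Zfp982 at 272 and 5.71 TPM and Rex2 at 235 and 1.26 TPM. The exception was Zfp993, at 61.2 and 61.0 TPM. In 5C-Oct4GFP+ cells Zfp980 was at 217 TPM and Rex2 at 136 TPM. These genes are close copies, so levels of single members are less certain than that of the cluster.

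Another stretch noticed after the values were seen was on the X chromosome between 136 and 137 Mb. There 10 of 15 tested genes were at least 2-fold higher in primed cells and 1 in naive cells, beside 20.7% and 15.1% of all tested genes. Over the whole X chromosome these counts were 122 and 89 of 421 tested genes. The 10 included all 7 tested Bex and Tceal genes, among them Bex1 at 194 TPM in naive and 637 TPM in primed cells and Bex3 at 299.9 and 765 TPM. In the second pair 6 of the 7 were at least 2-fold higher in R1-primed cells, beside 16.2% of all tested genes.

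Among noncoding and pseudogene entries, Platr13, an RNA of embryonic stem cells, was at 845 TPM in naive and 8.95 TPM in primed cells. Sox5it, an entry inside an intron on distal chromosome 6, was at 178 TPM in naive cells and listed at 0 in primed, 5C-Oct4GFP+, mES-Oct4GFP+ and R1-primed cells. Lhx1os, a long intergenic RNA in the tables, was at 0 and 15.5 TPM. Pgk1-rs7, a processed copy of the glycolysis gene Pgk1, was at 0 and 188 TPM, with Pgk1 itself at 329 and 1249 TPM, and the tables do not show how reads were shared between the copies.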
